A study of Homo sapiens with 3 samples.

Results

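The genes described here are 10 members of the Hippo pathway, taken as the rows of the deposited expression table named YAP1, WWTR1, TEAD1, TEAD2, TEAD3, TEAD4, LATS1, LATS2, AMOTL2 and ANKRD1, out of 58302 genes in the table. All 10 were found once, and all 10 passed the filter on low counts. All libraries were made from HCT116, a cell line derived from a human colorectal carcinoma. DUOX2, which encodes a hydrogen peroxide-producing oxidase of the cell surface, was targeted by RNA interference in 2 libraries, by a different small interfering RNA (siRNA) in each (siRNA 1 and siRNA 2). The control was a single library, labelled NC, for which the labels give an siRNA of another sequence. The labels give no dose, no time after transfection and no statement that the libraries came from separate cultures. The p-values below therefore rest on how far the 2 siRNA libraries lie apart, any difference between the 2 sequences included. For each gene this spread is pulled toward that of all genes, so a p-value or SE does not reflect the gene's own spread alone.

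The Hippo pathway is a kinase cascade that limits growth in epithelia, the gut lining among them. The kinases STK3 and STK4, with the adaptor SAV1, switch on LATS1 and LATS2, which with MOB1 proteins phosphorylate the transcriptional coactivators YAP (gene YAP1) and TAZ (gene WWTR1) and keep them out of the nucleus. Unphosphorylated YAP and TAZ bind the DNA-binding TEAD factors and raise the transcription of target genes such as ANKRD1, AMOTL2 and LATS2. Read counts measure RNA only, so the phosphorylation and location of YAP and TAZ were not measured, and in bulk RNA fewer expressing cells and less RNA per cell cannot be told apart.

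The siRNA strands are shown because the siRNA sequence is the one difference between the libraries that the labels give. Each is the guide strand, with bases 2 to 8, the seed that pairs with messenger RNA, in capitals.
siRNA 1 guide: aACCACUAuguuguccucc
siRNA 2 guide: aUGAAGGAucgcaucaugg
NC guide: aCGUGACAcguucggagaa
Among GENCODE 29 transcripts the complements of the first and second guides were found in DUOX2 (chromosome 15) alone, and that of the NC guide was found in 0 genes.

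The libraries held 19130768 counts (siRNA 1), 18832672 counts (siRNA 2) and 17589502 counts (NC). DUOX2 itself had 2, 0 and 2 counts in the siRNA 1, siRNA 2 and NC libraries, all below the detection limit set at 3 counts (0.157 to 0.171 CPM, counts scaled to a library's total), so a difference in the target was not detectable at this depth. The siRNA 1 library stood apart in its mitochondrially encoded genes, with 12.1% of counts against 8.83% with siRNA 2 and 8.58% in NC. The extract protocol speaks of retinas; the retinal markers SAG, GNAT1, CRX, PDE6B and OPN1SW had no count in any library, NRL had 13, 11 and 14 counts with siRNA 1, with siRNA 2 and in NC, and RCVRN had 3, 0 and 0. By contrast, 7 of 7 epithelial markers were detected in every library, with a sum of 3315, 4889 and 5286 CPM in the siRNA 1, siRNA 2 and NC libraries.

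The levels below are the authors' FPKM, that is counts per kilobase of gene length scaled to the library's total. ANKRD1, a nuclear ankyrin repeat protein used as a readout of YAP and TAZ, had the highest level of the 10 genes, with 101 FPKM (siRNA 1), 96.4 FPKM (siRNA 2) and 93.5 FPKM (NC), above at least 98.9% of 13251 tested protein-coding genes in each library. YAP1 and TEAD1 followed, at 22.3 to 38.7 FPKM and 22.9 to 28.0 FPKM over the 3 libraries. WWTR1, LATS2, TEAD4, AMOTL2, TEAD2, TEAD3 and LATS1 lay between 3.66 and 15.5 FPKM. In this lower range the 95% Poisson intervals, which cover counting error only, overlapped between neighbours in order: WWTR1 and LATS2 with either siRNA, TEAD4 and AMOTL2 with either siRNA, TEAD3 and LATS1 with either siRNA, and LATS2 and TEAD4, and WWTR1 and TEAD2, in NC.

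The order among genes depends on the gene length used. The length implied by the authors' counts and FPKM was 1.00 times the merged exon length in GENCODE 29 for ANKRD1 but 2.44 times for AMOTL2 (14622 against 5984 bases). Per kilobase of merged exons, a choice made after the values were seen, AMOTL2 stood at 17.4 FPKM with siRNA 1, 24.2 FPKM with siRNA 2 and 37.8 FPKM in NC, so that it ranked 5, 4 and 3 of the 10 genes in place of 7, 6 and 4. LATS2, with a ratio of 1.05, ranked 7, 8 and 8 in place of 5 in every library. ANKRD1 was the highest of the 10 and TEAD3 or LATS1 the lowest by either length. The share of protein-coding genes below ANKRD1 was taken with the authors' lengths only and may differ with merged exons. Comparisons of 1 gene between libraries do not depend on the length.

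**Figure D1:**
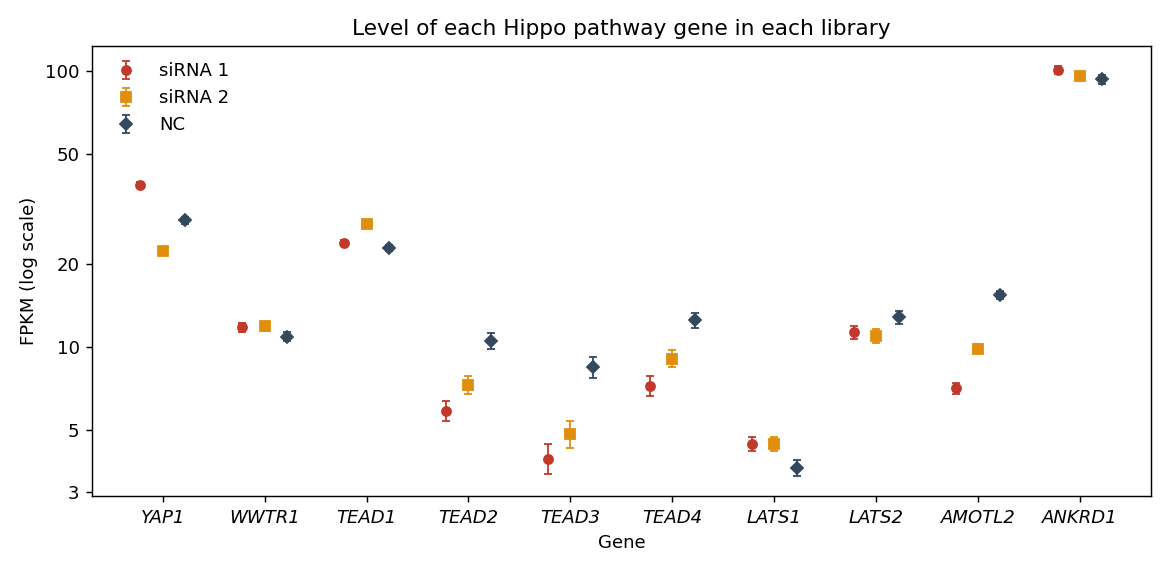
FPKM (log axis) of each of the 10 genes in the siRNA 1 library (circles), the siRNA 2 library (squares) and the NC library (diamonds); bars are 95% Poisson intervals, which cover counting error only. TEAD2, TEAD3, TEAD4 and AMOTL2 lie lower in both siRNA libraries than in NC, and YAP1 has its NC value between those of the siRNA libraries.

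The siRNA libraries were then compared with NC, gene by gene. None of the 10 Hippo genes passed edgeR's quasi-likelihood test at an adjusted p of 0.05 over all 17263 genes tested, where 10 genes (0.0579%) passed, 0.0174% higher and 0.0405% lower. At an unadjusted p under 0.05 the count was 3 of 10 (TEAD3, AMOTL2 and TEAD2), all of them lower, against 26% of all genes (11.5% higher and 14.5% lower). That count was 2 of 10, without TEAD2, with DESeq2 (2591 of 17263 genes) and with no filter (3938 of 27020). It was 0 of 10 with the trend on GC content, described below, removed (1749 of 17209). After adjustment DESeq2 called 0 of 10, against 3.12% of all genes. DESeq2 gave 5690 of the 17263 genes no adjusted p, and these are taken as not called. By size, 0 of 10 were at least 2-fold away from NC in the same direction with both siRNAs, where 4% of all genes were higher and 5.05% lower (9.05% in all). With siRNA 1 alone 0 of 10 were that far away, where 8.06% of all genes were higher and 12.4% lower, although under total count scaling AMOTL2 (-1.12) and TEAD3 (-1.09) were. With siRNA 2 alone 0 of 10 were, where 5.54% were higher and 7.84% lower. NC lay above both siRNA libraries for 5 of the 10 genes (41.6% of all genes), below both for 4 (41.9%) and between them for 1, YAP1 (16.5%). Shares this near to those of all genes single out nothing about these 10. The median log2 fold change of the 10 genes was 0.08 with siRNA 1 and -0.24 with siRNA 2, beside 0.02 and -0.0075 for all tested genes.

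Of the coactivators, YAP1 (ENSG00000137693, chromosome 11, 102110461 to 102233423, plus strand, GRCh38) had 7773 counts with siRNA 1, 4406 counts with siRNA 2 and 5324 counts in NC. The siRNA libraries lay on opposite sides of NC, so the groups overlap. The log2 fold change was 0.56 with siRNA 1 (exact 95% interval 0.51 to 0.62) and -0.31 with siRNA 2 (-0.37 to -0.25), on counting error alone. The siRNA libraries thus differed from each other more than either did from NC, by 0.88 on the log2 scale (0.82 to 0.93). In FPKM the siRNA libraries averaged 30.5 ± 11.6 (SD, n = 2), against 28.9 in NC, and the fit over both gave a log2 fold change of 0.19 ± 0.37 (SE; edgeR adjusted p = 0.758). The siRNA 1 library was also the one with the highest mitochondrial share and the lowest sum of epithelial markers. Most of that sum is the keratins KRT8, KRT18 and KRT19. EPCAM (12181, 11926 and 7646 counts with siRNA 1, with siRNA 2 and in NC) and CLDN7 (1498, 1564 and 906 counts) were higher in both siRNA libraries. KRT18 (19590, 27271 and 33521 counts), KRT19 (6102, 8563 and 16482 counts) and VIL1 (883, 970 and 1189 counts) were lower in both. KRT8 (21957, 39987 and 31766 counts) and CDH1 (1215, 1792 and 1472 counts) had NC between the siRNA libraries. The part of these differences in the YAP1 values was not tested. Of 4972 tested genes with at least 1000 counts in a library, 2.25% had a difference of siRNA 1 over siRNA 2 as large as YAP1's, and in 1.39% the siRNAs lay on opposite sides of NC by at least the smaller of YAP1's differences.

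WWTR1 (ENSG00000018408, chromosome 3, 149517235 to 149736714, minus strand), which encodes TAZ, had 2911 counts with siRNA 1, 2888 counts with siRNA 2 and 2473 counts in NC. Both siRNA libraries were above NC and within counting error of each other, with log2 fold changes of 0.25 and 0.19 (0.22 ± 0.19 SE over both; edgeR adjusted p = 0.475). As a share of the counts of both coactivators, YAP1 took 72.8% with siRNA 1 (exact binomial 95% interval 71.9 to 73.6), 60.4% with siRNA 2 (59.3 to 61.5) and 68.3% in NC (67.2 to 69.3). The YAP1 share is thus highest with siRNA 1 and lowest with siRNA 2. Per length, YAP1 stood at 3.28, 1.87 and 2.64 times WWTR1 in FPKM with siRNA 1, with siRNA 2 and in NC. Exons of YAP1 and of WWTR1 share bases with antisense genes (AP000942.2 and WWTR1-AS1), which had at most 8 counts in any library.

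By the nearest pair of fold changes with siRNA 1 and siRNA 2, over 3 libraries and 11741 protein-coding genes with at least 50 counts in a library, the genes most like YAP1 were GTPBP2 (1356, 772 and 920 counts with siRNA 1, with siRNA 2 and in NC), CTAGE9 (76, 42 and 52 counts) and AIF1L (789, 454 and 537 counts). Their distances from YAP1 were 0.024, 0.026 and 0.033 on the log2 scale, and 16 genes lay within 0.1.

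The TEAD genes encode the DNA-binding partners of YAP and TAZ. TEAD1 (ENSG00000187079, chromosome 11, 12674591 to 12944483, plus strand) had 6488 counts with siRNA 1, 7504 counts with siRNA 2 and 5715 counts in NC. Both siRNA libraries were above NC, with log2 fold changes of 0.20 (0.15 to 0.25 on counting error) and 0.35 (0.30 to 0.40), and 0.28 ± 0.19 (SE) over both (edgeR adjusted p = 0.368). The other TEAD genes lay on the other side of NC.

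TEAD3 (ENSG00000007866, chromosome 6, 35473597 to 35497076, minus strand) had 260 counts with siRNA 1, 314 counts with siRNA 2 and 512 counts in NC. Both siRNA libraries were well below NC, at 0.516 and 0.599 of its level, and did not differ from each other beyond counting error (log2 difference of siRNA 1 over siRNA 2 of -0.21, -0.46 to 0.03). TEAD3 had the lowest fold change of the 10 genes over both siRNAs, at -0.85 ± 0.24 (log2, SE; edgeR adjusted p = 0.130). TEAD2 (ENSG00000074219, chromosome 19, 49340595 to 49362457, minus strand) had 567 counts with siRNA 1, 694 counts with siRNA 2 and 934 counts in NC. TEAD4 (ENSG00000197905, chromosome 12, 2959330 to 3040673, plus strand) had 600, 742 and 954 counts in the same order. For both genes NC was the highest library and siRNA 1 the lowest, with log2 fold changes over both siRNAs of -0.58 ± 0.23 for TEAD2 and -0.52 ± 0.23 for TEAD4 (SE; edgeR adjusted p = 0.189 and 0.220). TEAD2 shares 10.7% of its exon bases with CD37 on the opposite strand, which had 0 counts in every library.

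**Figure D2:**
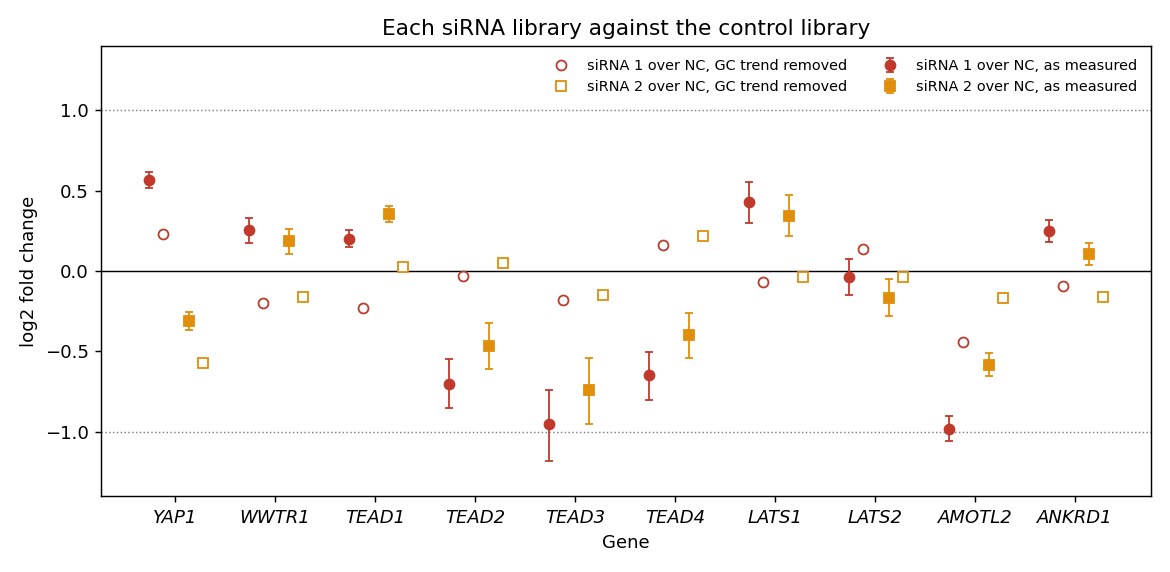
Log2 fold change of the siRNA 1 library (circles) and the siRNA 2 library (squares) over NC for each of the 10 genes, as measured (filled, bars are exact 95% intervals from counting error) and with the trend on GC content removed (open); dotted lines mark 2-fold. No gene is beyond 2-fold with either siRNA at this scaling (AMOTL2 and TEAD3 are with siRNA 1 under total count scaling), and with the trend removed TEAD2 and TEAD4 move from well below 0 to 0.22 at most.

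The makeup of the TEAD family differed between the libraries, a comparison free of library scaling but not of differences in GC content. TEAD1 took 82.0% of TEAD counts with siRNA 1 (exact binomial 95% interval 81.1 to 82.8) and 81.1% with siRNA 2 (80.3 to 81.9), against 70.4% in NC (69.4 to 71.4). The share was alike in the siRNA libraries, whose intervals overlap, and higher in both than in NC. As a share of summed FPKM, TEAD1 made 58.3% with siRNA 1, 56.9% with siRNA 2 and 42.0% in NC (53.9%, 52.4% and 38.1% per kilobase of merged exons). Among the remaining genes, TEAD4 made 42.0%, 42.4% and 39.8% of the summed counts of TEAD2, TEAD3 and TEAD4 with siRNA 1, with siRNA 2 and in NC, and TEAD3 made 18.2%, 17.9% and 21.3%. NC has no replicate, so these intervals hold no error between cultures. The TEAD1 transcript has a GC content of 41.3% and those of TEAD2, TEAD3 and TEAD4 have 58.4 to 60.4%. With the trend on GC content removed, TEAD1 had log2 fold changes of -0.23 with siRNA 1 and 0.02 with siRNA 2. TEAD2 then had -0.031 and 0.049, TEAD3 had -0.18 and -0.15, and TEAD4 had 0.17 and 0.22. The part of GC content in the TEAD shares was not tested.

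**Figure D3:**
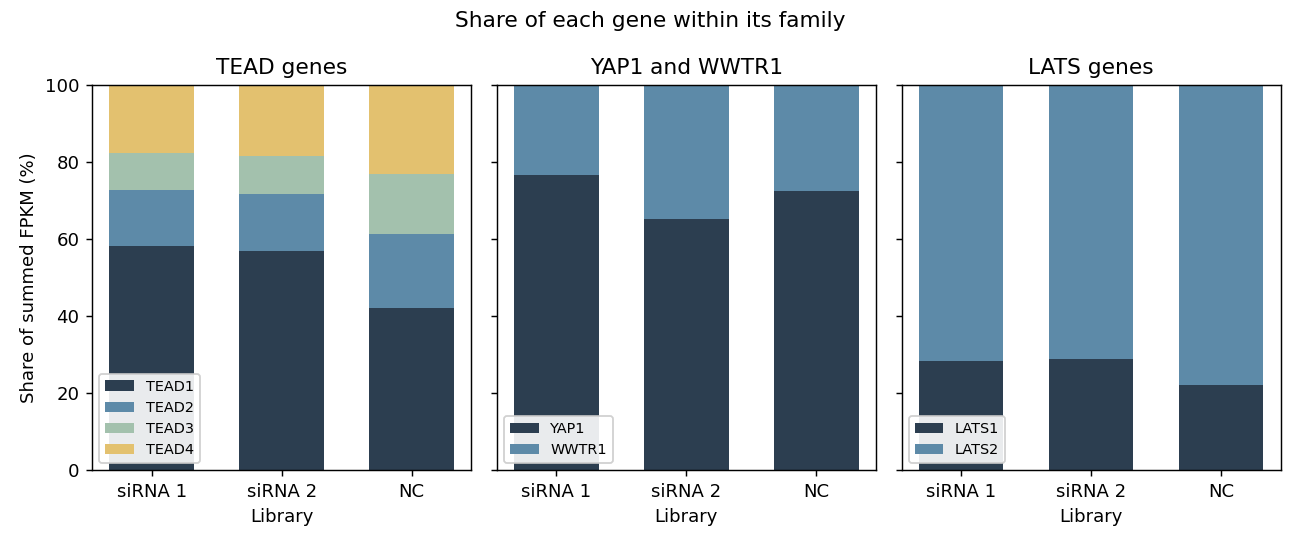
Share of summed FPKM (%, from 0) of each gene within the TEAD genes, within YAP1 and WWTR1, and within the LATS genes, in the siRNA 1, siRNA 2 and NC libraries. TEAD1 makes 58.3% and 56.9% in the siRNA libraries against 42.0% in NC, while the YAP1 share in NC lies between those of the siRNA libraries. The shares are not adjusted for GC content.

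Of the kinases that phosphorylate YAP and TAZ, LATS1 (ENSG00000131023, chromosome 6, 149658153 to 149718256, minus strand) had 1172 counts with siRNA 1, 1152 counts with siRNA 2 and 883 counts in NC. Both siRNA libraries were above NC and close to each other, with log2 fold changes of 0.43 and 0.34 (0.39 ± 0.22 SE over both; edgeR adjusted p = 0.295). LATS2 (ENSG00000150457, chromosome 13, 20973032 to 21061547, minus strand), which is both a kinase of the pathway and a target gene of YAP, had 1275 counts with siRNA 1, 1215 counts with siRNA 2 and 1327 counts in NC. Its log2 fold changes of -0.039 (-0.15 to 0.07 on counting error) and -0.17 (-0.28 to -0.05) were small, and the siRNA 1 library did not differ from NC beyond counting error. The fit gave -0.10 ± 0.21 (SE; edgeR adjusted p = 0.777). LATS1 took 47.9% of the counts of both kinases with siRNA 1 (45.9 to 49.9), 48.7% with siRNA 2 (46.6 to 50.7) and 40.0% in NC (37.9 to 42.0). As for the TEAD shares, these intervals hold no error between cultures. The GC content is 39.7% for LATS1 and 51.8% for LATS2. With the trend on GC content removed, LATS1 had -0.066 with siRNA 1 and -0.039 with siRNA 2, and LATS2 had 0.14 and -0.037. The part of GC content in the LATS shares was not tested. Per length LATS2 was the more abundant of the pair in all 3 libraries, at 2.54, 2.46 and 3.51 times LATS1 in FPKM with siRNA 1, with siRNA 2 and in NC. Per kilobase of merged exons the pair lay closer, with LATS2 at 11.9, 11.6 and 13.5 FPKM and LATS1 at 7.09, 7.08 and 5.81 FPKM in the same libraries.

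AMOTL2 (ENSG00000114019, chromosome 3, 134355874 to 134375479, minus strand), an angiomotin family protein that holds YAP in the cytoplasm and is itself a YAP target gene, had 1989 counts with siRNA 1, 2726 counts with siRNA 2 and 3974 counts in NC. Both siRNA libraries were below NC, at 0.507 (siRNA 1) and 0.668 (siRNA 2) of its level. The siRNA libraries also differed from each other, by -0.40 on the log2 scale (siRNA 1 over siRNA 2; -0.48 to -0.31). Over both siRNAs the log2 fold change was -0.77 ± 0.23 (SE; edgeR adjusted p = 0.137). ANKRD1 (ENSG00000148677, chromosome 10, 90912096 to 90921276, minus strand) had 3822 counts with siRNA 1, 3593 counts with siRNA 2 and 3253 counts in NC. It was higher in both siRNA libraries, with log2 fold changes of 0.25 and 0.11 (0.18 ± 0.19 SE over both; edgeR adjusted p = 0.562). As measured, AMOTL2 and ANKRD1 thus lay on opposite sides of NC. With the trend on GC content, described below, removed, both lay below NC with either siRNA. AMOTL2 then had -0.44 with siRNA 1 and -0.17 with siRNA 2, and ANKRD1 had -0.096 and -0.16.

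The fold changes of the 10 genes lined up with the GC content of their longest GENCODE 29 transcripts. LATS1, WWTR1, TEAD1, ANKRD1 and YAP1, at 39.7 to 43.5% GC, had mean log2 fold changes of 0.13 to 0.39. LATS2, at 51.8%, had -0.10, and AMOTL2, TEAD2, TEAD3 and TEAD4, at 56.7 to 60.4%, had -0.85 to -0.52. Spearman's correlation between GC content and the mean fold change was -0.90 over the 10 genes (Pearson -0.96), and -0.69 (Pearson -0.61) over 17209 tested genes with a known GC content. The fold changes share 1 control library, and genes are not independent replicates, so this is a description. With the trend of all genes subtracted, 8 of the 10 genes had a mean fold change of the other sign, namely all but AMOTL2 and TEAD3. The share of all genes whose sign turned was not counted, so this is not shown to be particular to the 10. AMOTL2 then had -0.44 with siRNA 1 and -0.17 with siRNA 2, TEAD3 had -0.18 and -0.15, TEAD2 had -0.031 and 0.049, and TEAD4 had 0.17 and 0.22. YAP1 then had 0.23 and -0.57, still on opposite sides of NC, and TEAD1 had -0.23 and 0.02.

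**Figure D4:**
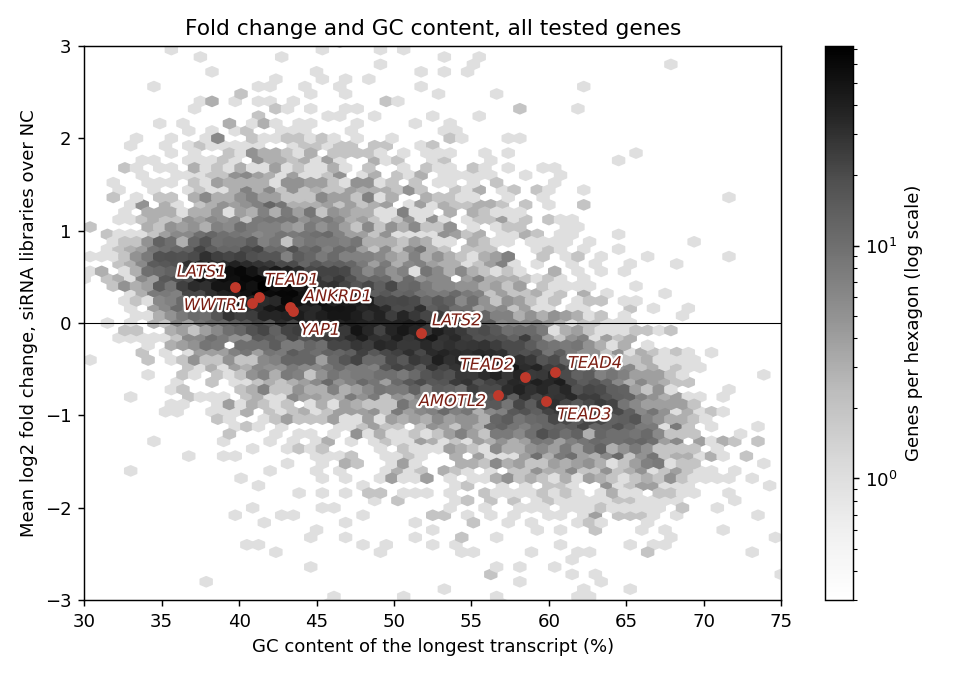
Mean log2 fold change of the siRNA libraries over NC against the GC content of the longest transcript (%), for tested genes (grey hexagons, darker for more genes on a log scale) and the 10 Hippo genes (red points); 88 of 17209 genes lie outside the axes. The 10 genes follow the downward band of all genes, with LATS1 at the upper left and TEAD3 and TEAD4 at the lower right.

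Seed matches are given for the members that hold one, since an siRNA can lower transcripts that pair with its seed. The 7-base complement of the siRNA 1 seed (TAGTGGT) was found in the longest annotated 3' UTR of YAP1 and of LATS1, and in 8.31% of 13168 tested protein-coding genes. That of siRNA 2 (TCCTTCA) was found in TEAD1 alone among the 10 genes and in 16.6% of genes, and that of NC (TGTCACG) in LATS2 and TEAD1 and in 3.08% of genes. The sites are shown with their flanks, the seed match in capitals.
YAP1, siRNA 1 site: aagctttaTAGTGGTttaccttc
LATS1, siRNA 1 site: tttggggtTAGTGGTtcttttga
TEAD1, siRNA 2 site: gtcttttgTCCTTCAttctgtat
TEAD1, NC site: tgtctttgTGTCACGtgtataaa
LATS2, NC site: ctgctcaaTGTCACGgagaccat
With siRNA 1, the log2 fold change was 0.56 for YAP1 and 0.43 for LATS1 (0.23 and -0.066 with the trend on GC content removed). With siRNA 2 it was 0.35 for TEAD1 (0.02 with the trend removed). AMOTL2, TEAD2, TEAD3 and TEAD4, below NC as measured, and WWTR1 and ANKRD1, above it, held 0 sites for any of the 3 guides. LATS2, also below NC as measured with both siRNAs, held the NC site alone. With the trend removed, WWTR1 (-0.20 and -0.16) and ANKRD1 (-0.096 and -0.16) were below NC and TEAD4 (0.17 and 0.22) was above it. TEAD2 (-0.031 and 0.049) and LATS2 (0.14 and -0.037) then had NC between the siRNA libraries, and AMOTL2 and TEAD3 stayed below NC. The 3' UTRs searched ran from 195 bases (TEAD4) to 7261 bases (TEAD1), and a short one has less room for a site. The part of seed pairing in these values was not tested.

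The promoters of the target genes ANKRD1 and AMOTL2, of YAP1 and LATS2, and of TEAD3 (the member with the lowest fold change) are printed to set the fold changes beside the sequence at the gene start. Each is a window of 300 bases around a RefSeq start (GRCh38.p14), most of it upstream, read 5' to 3' on the strand of the gene, with the core TEAD motif GGAATG, or its reverse complement CATTCC, in capitals.
ANKRD1 (chr10:90921038-90921337, minus strand): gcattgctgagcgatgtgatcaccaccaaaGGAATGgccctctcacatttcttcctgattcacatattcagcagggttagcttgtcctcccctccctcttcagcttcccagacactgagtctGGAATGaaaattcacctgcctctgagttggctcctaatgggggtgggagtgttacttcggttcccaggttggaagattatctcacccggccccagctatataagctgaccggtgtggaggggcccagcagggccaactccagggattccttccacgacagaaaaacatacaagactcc
AMOTL2 (chr3:134374398-134374697, minus strand): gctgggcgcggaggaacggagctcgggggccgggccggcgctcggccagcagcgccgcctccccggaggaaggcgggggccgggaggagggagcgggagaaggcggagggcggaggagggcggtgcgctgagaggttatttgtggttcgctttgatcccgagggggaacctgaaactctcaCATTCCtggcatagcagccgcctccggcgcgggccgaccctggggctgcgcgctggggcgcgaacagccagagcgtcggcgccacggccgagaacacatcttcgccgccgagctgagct
YAP1 (chr11:102110197-102110496, plus strand): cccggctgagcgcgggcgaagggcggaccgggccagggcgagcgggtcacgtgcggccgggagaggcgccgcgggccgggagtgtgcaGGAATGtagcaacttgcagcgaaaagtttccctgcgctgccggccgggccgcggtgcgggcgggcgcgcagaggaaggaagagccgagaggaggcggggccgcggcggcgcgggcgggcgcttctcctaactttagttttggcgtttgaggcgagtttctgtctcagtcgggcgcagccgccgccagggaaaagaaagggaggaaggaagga
LATS2 (chr13:21061537-21061836, minus strand): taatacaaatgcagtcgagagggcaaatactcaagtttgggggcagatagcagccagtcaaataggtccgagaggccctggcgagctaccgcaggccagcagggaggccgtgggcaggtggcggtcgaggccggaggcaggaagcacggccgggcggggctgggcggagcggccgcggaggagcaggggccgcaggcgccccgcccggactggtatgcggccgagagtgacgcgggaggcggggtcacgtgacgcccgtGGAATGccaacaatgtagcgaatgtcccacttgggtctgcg
TEAD3 (chr6:35497030-35497329, minus strand): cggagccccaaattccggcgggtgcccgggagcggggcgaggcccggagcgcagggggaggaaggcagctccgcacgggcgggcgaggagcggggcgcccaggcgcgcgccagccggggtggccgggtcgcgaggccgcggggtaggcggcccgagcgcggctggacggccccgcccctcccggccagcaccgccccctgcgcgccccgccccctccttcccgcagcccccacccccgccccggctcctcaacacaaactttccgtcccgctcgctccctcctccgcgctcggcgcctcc
RefSeq windows were matched for 8 of the 10 genes, with 2 starts each for WWTR1, TEAD2, LATS1 and AMOTL2; TEAD1 and TEAD4 were not matched. The motif was found 2 times for ANKRD1, 220 and 128 bases before the start, and 1 time each for AMOTL2 (69 bases before the downstream of its 2 starts), YAP1 (162 bases before) and LATS2 (10 bases after). Each member window that held the motif is thus printed. The windows not printed, those of WWTR1, TEAD2 and LATS1 and the upstream one of AMOTL2, held none. Of 35116 RefSeq promoters of the same length, 14% held it on either strand, and of 15723 promoters of tested genes 11.6% did. The GC content of the windows was 52.7% for ANKRD1, 72.7% for AMOTL2 and 81.3% for TEAD3. The 4 members with a motif had fold changes on both sides of 0.

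The wider list of YAP and TAZ target genes, a pan-cancer signature of 22 genes that includes AMOTL2, LATS2 and ANKRD1, had 21 members tested. Of these, 0 passed the edgeR test over all genes (0.0579% of all genes did). Beyond 2-fold with both siRNAs there were 0, where 4% of all genes were higher and 5.05% lower. With no filter all 22 were kept and 1 was beyond 2-fold higher with both siRNAs (963 of 27020 genes). At an unadjusted p under 0.05 edgeR gave 0 higher (11.5% of all genes) and 2 lower (14.5%), and DESeq2 called 0 after adjustment (3.12%). NC lay above both siRNA libraries for 8 of the 21 (41.6% of all genes), below both for 7 (41.9%) and between for 6 (16.5%). The median of the mean log2 fold changes was -0.02, beside -0.0019 for all tested genes. CTGF and CYR61, the matricellular proteins most often read as YAP targets and chosen here after their values were seen, had 150 and 735 counts with siRNA 1, 163 and 835 counts with siRNA 2, and 142 and 747 counts in NC. The lowest of the list was ARHGEF17, a guanine nucleotide exchange factor, with 117 and 160 counts with siRNA 1 and siRNA 2 and 297 counts in NC (edgeR adjusted p = 0.127; -0.33 and -0.18 with the GC trend removed). The highest was F3, tissue factor, with 386, 362 and 259 counts (edgeR adjusted p = 0.237).

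Of the other kinases, adaptors and regulators of the pathway, 24 of 26 were tested and 0 passed the edgeR test (0.0579% of all genes did). At an unadjusted p under 0.05, 3 were higher (11.5% of all genes) and 6 were lower (14.5%). Beyond 2-fold with both siRNAs, 1 was higher (4% of all genes were) and 2 were lower (5.05%). STK38L, a kinase related to LATS1, had 3389 and 2900 counts with siRNA 1 and siRNA 2 and 1368 counts in NC (log2 fold change 1.19 ± 0.23 SE; edgeR adjusted p = 0.112). SCRIB, a cell polarity scaffold, had 452, 613 and 1286 counts (-1.29 ± 0.25; edgeR adjusted p = 0.112), and DCHS1, a large cadherin, had 23, 28 and 93 counts (-1.87 ± 0.36; edgeR adjusted p = 0.112). With the GC trend removed STK38L had 0.68 and 0.54, SCRIB had -0.26 and -0.18 and DCHS1 had -0.983 and -0.999, and 0 genes of the list were beyond 2-fold with both siRNAs. Under total count scaling STK38L was no longer beyond 2-fold with both. DESeq2 called 3 of the 24 (3.12% of all genes), namely SCRIB, STK38L and MOB1B, a LATS cofactor with 1561, 1379 and 712 counts that shares 2.26% of its exon bases with DCK (1212, 1189 and 555 counts). The core kinases STK4 (2256, 2085 and 1822 counts) and STK3 (317, 384 and 274 counts), named after their values were seen, were above NC with both siRNAs without passing. With the GC trend removed both were below it, STK4 at -0.014 and -0.11 and STK3 at -0.35 and -0.0054. The list median was 0.15, 0.05 under total count scaling and -0.09 with the GC trend removed.

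Of the STRIPAK complex, the phosphatase complex that acts against STK3 and STK4, 17 of 18 genes were tested. Of these, 0 were past the edgeR test (0.0579% of all genes) and 0 were called by DESeq2 (3.12%). At an unadjusted p under 0.05 edgeR gave 5 higher (11.5% of all genes) and 2 lower (14.5%), and none of the 17 was 2-fold away from NC with both siRNAs (among all genes, 4% were higher and 5.05% lower). The list median was 0.24, and -0.0020 with the GC trend removed. The highest by mean fold change was MOB4, with 1828 counts with siRNA 1, 263 counts with siRNA 2 and 309 counts in NC. It shares 16.2% of its exon bases with the read-through gene HSPE1-MOB4 (69, 384 and 66 counts), so its counts are uncertain. The lowest was PPP2R1A, the scaffold subunit of the phosphatase, with 1355, 2135 and 2998 counts (edgeR adjusted p = 0.164). Among the VGLL cofactors, which compete with YAP for TEAD factors, VGLL4 had 668, 845 and 742 counts, with NC between the siRNA libraries (edgeR adjusted p = 0.973; 23.7% of its exon bases overlap genes on the other strand). VGLL3 had at most 20 counts, and VGLL1 and VGLL2 had 0 counts in every library.

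**Figure D5:**
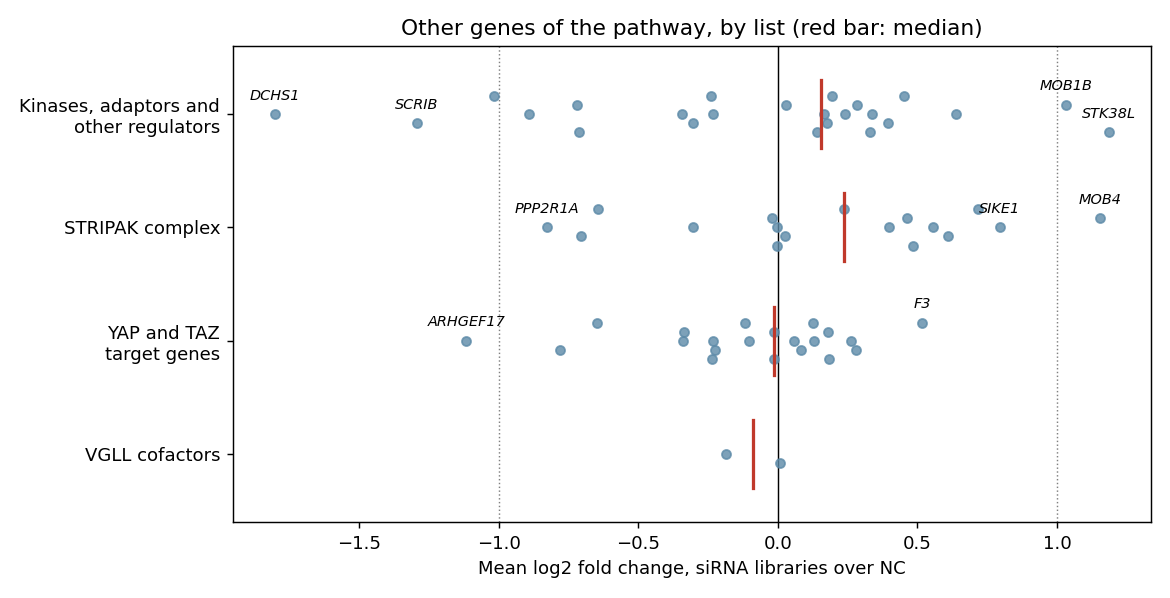
Mean log2 fold change of the siRNA libraries over NC for the tested genes of the other pathway lists (1 point per gene, spread vertically for legibility), with the median of each list as a red bar and dotted lines at 2-fold. The medians run from -0.09 for the VGLL cofactors to 0.24 for the STRIPAK complex, and the kinases, adaptors and regulators spread furthest, from DCHS1 to STK38L.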

How the data were processed

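RNA of HCT116 cells in 2 DUOX2 siRNA libraries and 1 control library was analysed from 1 deposited table. The deposited counts are raw reads per gene and the authors' FPKM values sit beside them. The processing notes of the submitters list Bowtie 0.12.2, mm8 and GRCh38 without saying what each was used for; the table's coordinates are GRCh38 (97.5% identical to GENCODE 29). What counted the reads, whether it used strand and how it treated multiply aligned reads is not given in the sources used here. Every row named a gene.

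Counts were tested with edgeR 4.0.16 (R 4.3.3): TMM, filterByExpr with a minimum count of 10, quasi-likelihood F test, Benjamini-Hochberg adjustment over 17263 genes, 1 residual degree of freedom. The median prior over all genes held 4.66 degrees of freedom. The edgeR step was also run on simulated counts with a spread common to all genes and no trend on GC content. That run does not show how the test behaves on these libraries. DESeq2 1.42.0 and limma 3.58.1 (log2 of FPKM plus 1 or 0.1) were alternatives. For a single siRNA the fold change is the log2 CPM minus that of NC (prior count 2); the intervals are exact at 95% (scipy 1.17.1). GC content is that of the longest transcript, and its trend was taken by lowess with a fraction of 0.3. Promoter windows are from RefSeq (GRCh38.p14). The members and lists were chosen with earlier results of these data known. Genes named are the 10 members and, per list, those past the test or beyond 2-fold with both siRNAs, then the highest and lowest by mean fold change, with at least 50 counts in a library.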

Additional observations from a re-analysis of the deposited data

Results flagged for a closer look

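In 4 genes of the member and pathway lists the siRNA 1 and siRNA 2 libraries lay on opposite sides of NC. Both counting intervals were clear of 0. The genes searched were the 10 members and the tested genes of the lists (24, 17, 21 and 2, with some shared). Among all tested genes NC lay between the siRNA libraries for 16.5%, whatever their intervals. The share of all genes under the full rule was not counted, so the 4 are not shown to stand out. The difference was not tested, since each siRNA has 1 library. YAP1 had log2 fold changes of 0.56 with siRNA 1 and -0.31 with siRNA 2. ASAP1, an Arf GTPase-activating protein in the YAP and TAZ target list, had 0.25 and -0.49 (6256 counts with siRNA 1, 3906 counts with siRNA 2 and 5325 counts in NC). PPP2CB, a catalytic subunit of the phosphatase in the STRIPAK complex, had 0.24 and -0.25 (1022, 757 and 875 counts). MOB4, whose reads may be shared with HSPE1-MOB4, had 2.58 and -0.27. With the trend on GC content removed, ASAP1 had -0.051 with siRNA 1 and -0.72 with siRNA 2, both below NC. YAP1 (0.23 and -0.57), PPP2CB (0.17 and -0.31) and MOB4 (1.98 and -0.74) still had the siRNA libraries on opposite sides.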

How the results depend on the processing

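None of the 10 genes passed the test or was 2-fold away with both siRNAs under any alternative run, and the lowest adjusted p was 0.1203, for AMOTL2 with DESeq2. Total count scaling, which moved the median of all genes to -0.12 with siRNA 1 and -0.07 with siRNA 2, DESeq2, the other filters, FPKM and a prior count of 0.5 kept the sign of all 10 mean fold changes. Removing the GC trend reversed YAP1 (-0.17), WWTR1 (-0.18), TEAD1 (-0.10), TEAD2 (0.0089), TEAD4 (0.19), LATS1 (-0.052), LATS2 (0.0505) and ANKRD1 (-0.13), and leaving out siRNA 1 reversed YAP1, which ranged from -0.31 to 0.56 with 1 siRNA library at a time; the causes were not tested. Over all genes, the count past the test was 10 as reported, 539 with DESeq2, and 0 each when no filter was used, when all libraries had to reach 1 CPM, for limma on FPKM (either pseudocount) and with the GC trend removed, where 3938, 4050, 4282 and 4010, and 1749 genes had an unadjusted p under 0.05. Genes beyond 2-fold with both siRNAs numbered 1562 as reported (691 higher, 871 lower), 2664 without a filter, 900 with at least 1 CPM, 447 with FPKM plus 1, and 817 with the GC trend removed (576 higher, 241 lower); with 1 siRNA library left out, 2311 to 3523 genes were beyond 2-fold with the other. With 1 siRNA library left out the test has no residual degrees of freedom and gives no value. No paired analysis was possible because the control library carries no replicate number. The single control limits every comparison, since its own spread was not measured.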
